A study of Mus musculus with 6 samples.

Results

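The genes described here are the enzymes and transporters that carry glucose carbon from uptake to the citric acid cycle, a list of 42 genes written by their textbook roles. They fall into glucose uptake (2 genes), glycolysis (14), lactate exchange (2), pyruvate entry (9), the citric acid cycle (12) and the malate-aspartate shuttle (3). Of the 42 genes, 41 were among the 17145 genes of the count table and 40 were among the 7665 genes with at least 10 UMIs over the 6 libraries, the minimum for testing. *Mpc1* was not analysed here, and *Eno1* had 2 UMIs and was not tested. Members were matched by symbol, and the rule for membership uses no measured value.

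The data were UMI counts from cardiac tissue of FS6KD mice, which carry a gene-trap allele that lowers *Ndufs6*, a subunit of respiratory complex I, on a mixed C57BL/6J and 129/Ola background. In photo-isolation chemistry (PIC), cDNA is made within a tissue section from caged primers, and ultraviolet light frees the primers only in chosen areas. Areas were chosen by staining for the transcription factor Atf3, which gave 3 libraries labelled Atf3_high and 3 labelled Atf3_low, and each CEL-seq2 library counted every tagged cDNA molecule (UMI) once. The paper places both kinds of area inside clusters of Atf3-positive cells, so Atf3_low does not stand for tissue without Atf3. All 6 libraries are labelled female, Ndufs6 knockdown and cardiomyocytes, and no wild-type library was part of the comparison. The age of these mice, the number of cells in an area and whether both kinds of area came from the same hearts are not given in the sources used here. The comparison asks how transcript levels differ with the level of Atf3 protein.

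Glycolysis splits glucose into pyruvate in the cytosol, and pyruvate either becomes lactate or enters mitochondria through a carrier formed by Mpc1 and Mpc2. There the pyruvate dehydrogenase complex, which pyruvate dehydrogenase kinases switch off, turns it into acetyl-CoA for the citric acid cycle, whose electrons feed the respiratory chain. The adult heart draws most of its energy from fatty acids and uses muscle isoforms at several of these steps.

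The Atf3_high libraries held 184872, 81117 and 210588 UMIs (replicates 1, 2 and 3) and the Atf3_low libraries 171536, 125522 and 81917. Levels are given as CPM, UMIs scaled to a common library size after TMM correction, on which 1 UMI was worth from 4.66 CPM in Atf3_high replicate 3 to 13.6 CPM in Atf3_low replicate 3. A gene without a UMI could therefore have stood at up to 14.0 to 40.9 CPM, the level of 3 UMIs, counting error only. Within a group, any 2 libraries were further apart than counting noise allows (ratios of chi-square to degrees of freedom of 3.55 to 5.07), and each was kept as a replicate. Between the groups these ratios ran from 3.885 to 6.09, so that the 2 ranges overlapped.

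Atf3_high replicate 2 stood apart from its label. *Ddx3y* and *Eif2s3y*, both Y-linked, had 16 UMIs there and *Xist* had 0, while the other libraries held 0 or 1 Y-linked UMIs and from 3 to 26 of *Xist*. Counts over the module, step medians and the fold changes of named members are therefore also given without it. *Ndufs6* had 2, 0 and 3 UMIs in Atf3_high and 0 in every Atf3_low library, at the limit of detection in all. *Atf3* RNA stood at 254, 84.5 and 116 CPM in Atf3_high and 236, 0 and 109 in Atf3_low. The groups, which were set by the protein, overlapped in this RNA.

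Defining cardiomyocyte transcripts were present in every library, as the labels state. Of 12 cardiomyocyte markers, 11 had UMIs, led by the ventricular myosin light chain gene *Myl2*, and *Mb* was not analysed here. Their summed level was 24562, 25601 and 47078 CPM in Atf3_high and 46513, 53214 and 62720 in Atf3_low. All 11 had a log2 fold change below 0, with a median of −0.54, and the summed levels overlapped only through Atf3_high replicate 3. The markers did not differ evenly: *Myh6* alone passed (−1.81, adjusted p = 0.00512 by the edgeR quasi-likelihood F-test, Benjamini-Hochberg), *Actc1* had −1.14, and *Tnnc1* and *Ttn* both had −0.06. Fibroblast markers, led by *Col3a1*, had UMIs for 8 of 8 genes and summed to 5264, 2836 and 1118 CPM in Atf3_high and 2648, 1493 and 572 in Atf3_low. All 8 had a log2 fold change above 0, with a median of 0.83, and the groups overlapped.

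For the other cell types the summed levels overlapped between the groups. Endothelial markers (9 of 9, led by *Cd36*, which cardiomyocytes also express) summed to 2281, 1762 and 2310 CPM in Atf3_high and 2568, 2277 and 1880 in Atf3_low. Mural markers (8 of 8, led by *Rgs5*) summed to 772, 362 and 815 CPM against 708, 542 and 518, and macrophage markers (9 of 9, led by *Lyz2*) to 361, 302 and 172 CPM against 263, 359 and 286. Their median log2 fold changes were 0.07 for endothelial, 0.72 for mural (1 of 7 tested below 0) and −0.08 for macrophage markers. Erythrocyte markers had UMIs for 2 of 5 genes (*Hbb-bs* leading) and summed to 40.6, 157 and 32.6 CPM against 128, 91.8 and 0. Adipocyte markers had UMIs for 1 of 5 genes (*Car3*) and epicardial markers for 1 of 4 (*Wt1*), both at or below 27.0 CPM. Of 7 skeletal muscle markers only *Acta1*, which the heart also expresses, had UMIs, at 3313, 3850 and 1905 CPM in Atf3_high and 3572, 1677 and 994 in Atf3_low. The other markers of these lists, *Hba-a1*, *Hbb-bt*, *Alas2*, *Adipoq*, *Plin1*, *Cfd*, *Lep*, *Upk3b*, *Msln*, *Upk1b*, *Myh1*, *Myh2*, *Myh4*, *Tnni2*, *Tnnt3* and *Mylpf*, were not analysed here, which is not a measured 0.

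Across the module, most members stood somewhat lower in Atf3_high, and no single member passed the test. The log2 fold change (Atf3_high minus Atf3_low) was below 0 for 32 of 40 members, where 44.8% of all genes tested were below 0. The median was −0.33 for the members and 0.11 for all 7665 genes. The member median was smaller than the spread between libraries of a group in the members' median level (SD 0.44 on the log2 scale). Members also varied together from library to library, so the count below 0 is not a count of independent results. Members ran from −1.59 (*Pgam1*) to 0.25 (*Got2*), with standard errors from 0.32 to 1.06, so that for most of them the difference was smaller than its error or about as large. The part of the lower cardiomyocyte marker level and the higher fibroblast marker level in this median was not tested. Fewer cardiomyocytes in an area and less RNA per cardiomyocyte cannot be told apart in these bulk libraries.

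With the quasi-likelihood F-test of edgeR and Benjamini-Hochberg adjustment over all genes tested, 0 of 40 members were called (adjusted p from 0.920 to 0.996), where 0.0913% of all genes were called. At an unadjusted p under 0.05, edgeR gave 0 of 40 members, where 5.79% of all genes passed (2.24% lower and 3.55% higher in Atf3_high). At the same unadjusted threshold DESeq2 gave 1 member (*Mdh1*), limma-trend 2 (*Eno3* and *Mpc2*) and an ordinary linear model of the 2 groups 4 (*Dld*, *Mdh1*, *Pgam1* and *Idh3b*), and none of these tools called a member after adjustment. Over all genes the same tools gave 3.25%, 5.53% and 5.68%. With the replicate number as a block, edgeR gave 6 members (*Idh2*, *Eno3*, *Ldha*, *Mpc2*, *Mdh1* and *Pkm*), where 4.81% of all genes passed, and called 0. The block pairs Atf3_high replicate 2 with Atf3_low replicate 2, whose Y-linked and *Xist* UMIs make a shared heart unlikely. Leaving out Atf3_high replicate 3 gave an edgeR count of 6 (*Idh2*, *Ldha*, *Eno3*, *Pdk2*, *Mpc2* and *Pkm*), where 6.77% of all genes passed. Without Atf3_low replicate 1 it was 2 (*Pdk2* and *Gapdh*), without Atf3_low replicate 2 it was 2 (*Mdh1* and *Dlat*), and without Atf3_high replicate 1 it was 1 (*Pgam1*), where all genes gave 6.79%, 5.73% and 4.27%. These last 3 counts are no larger than the shares of all genes. All members in these counts were lower in Atf3_high.

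The groups did not overlap for 5 of 40 members, *Pgam1*, *Mpc2*, *Dld*, *Idh3b* and *Mdh1*, and in all 5 every Atf3_high library lay below every Atf3_low library. Among all genes 11.0% did not overlap, 3.89% with Atf3_high lower and 7.07% with Atf3_high higher, and 0 members were higher without overlap. Without Atf3_high replicate 3, 19 members were lower without overlap, where the share of all genes was 9.50%. Without Atf3_low replicates 1, 2 and 3 the members were 10, 10 and 9, where all genes gave 7.97%, 8.17% and 9.13%. Without Atf3_high replicates 1 and 2 they were 6 and 5 (7.54% and 5.61% of all genes), and with library size scaling 4 (2.45%).

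The members lie among the more abundant genes, with a median of 294.5 UMIs over the 6 libraries against 29.0 for all genes tested, and abundant genes differed less. Of the 1024 genes with at least 100 UMIs, a minimum chosen after the data were seen, 51.3% were below 0, with a median of −0.03. Of the 34 members with that many UMIs, 27 were below 0, with a median of −0.29. Without Atf3_high replicate 2, the library with Y-linked UMIs, 28 of 40 members were below 0 (44.2% of all genes), the member median was −0.20, and edgeR gave 0 members at an unadjusted p under 0.05 (4.48% of all genes). Without Atf3_high replicate 3, 36 of 40 were below 0 (48.1% of all genes) and the member median was −0.56, and these were the ends of the range of the median over the libraries left out.

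**Figure D1:**
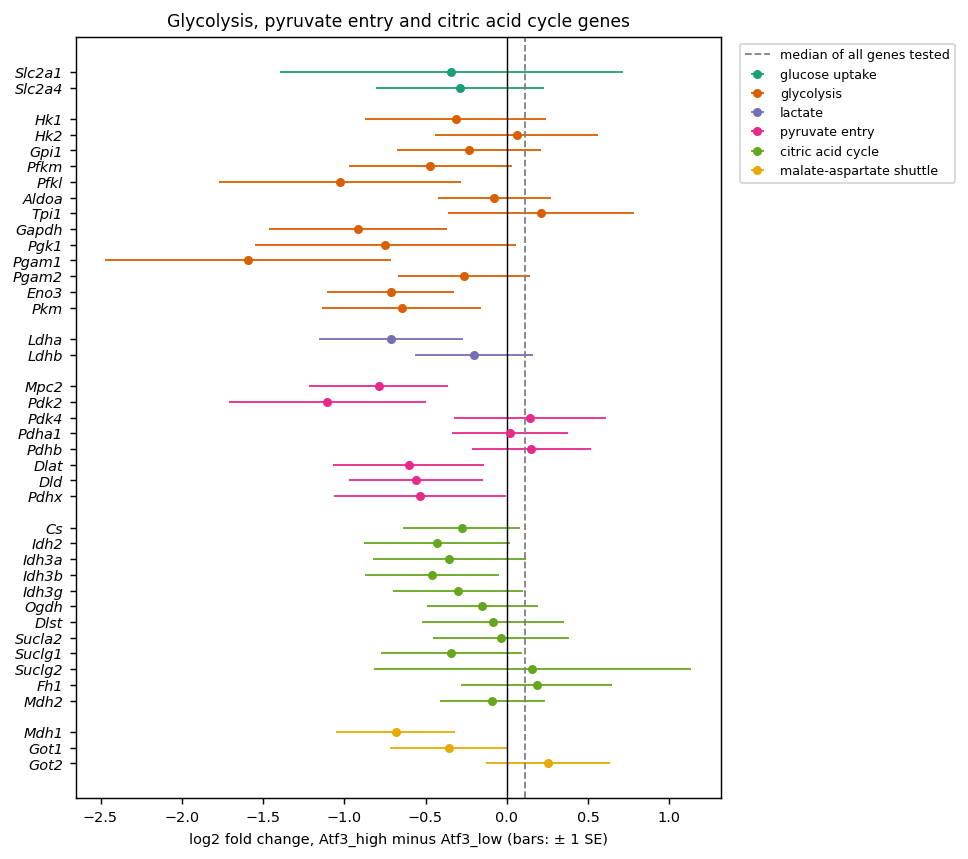
Log2 fold change (Atf3_high minus Atf3_low, horizontal axis) of the 40 tested members, grouped by step, with bars of 1 standard error and a dashed line at the median of all genes tested (0.11). Most points, 32 of 40, lie below 0, and most bars reach across it or close to it.

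Libraries of a group also differed from each other. Of the 40 tested members, 18 had their lowest level in Atf3_high replicate 2, 10 in Atf3_high replicate 1 and 1 in Atf3_high replicate 3. The highest level lay in Atf3_low replicate 1 for 14 members, in Atf3_low replicate 3 for 13, and in Atf3_high replicate 3 and Atf3_low replicate 2 for 6 each. Atf3_high replicate 3 therefore stood with the Atf3_low libraries for much of the list. This was not particular to the list. Over the whole count table its chi-square ratios were 3.885 and 3.921 with Atf3_low replicates 2 and 3. They were 5.07 and 4.93 with Atf3_high replicates 1 and 2, and 5.25 with Atf3_low replicate 1. Members took 1.97%, 1.79% and 2.55% of all UMIs in Atf3_high and 2.06%, 2.05% and 2.47% in Atf3_low, a mean of 2.1% ± 0.40 against 2.19% ± 0.24 (SD, n = 3 libraries). On the TMM scale they summed to 20345 ± 4080 CPM in Atf3_high and 24242 ± 3054 in Atf3_low (SD, n = 3 libraries). Both measures overlapped, and they differ because the TMM factors were from 1.06 to 1.11 in Atf3_high and from 0.89 to 0.99 in Atf3_low. Scaled by library size alone, 26 of 40 members were below 0 and the member median was −0.12, while the median of all genes was 0.31.

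By step, the median log2 fold change was below 0 throughout. It was −0.31 for glucose uptake (2 of 2 tested members below 0), −0.47 for glycolysis (11 of 13), −0.46 for lactate exchange (2 of 2), −0.55 for pyruvate entry (5 of 8), −0.21 for the citric acid cycle (10 of 12) and −0.36 for the malate-aspartate shuttle (2 of 3). Apart from pyruvate entry and the shuttle, each of these medians was smaller than the spread between libraries of a group in the step's median level (SD from 0.50 to 0.79 on the log2 scale). That spread was 0.48 for pyruvate entry and 0.18 for the shuttle. Without Atf3_high replicate 2 the medians were −0.02 for glucose uptake, −0.40 for glycolysis, −0.25 for lactate exchange, −0.42 for pyruvate entry, −0.02 for the citric acid cycle and −0.41 for the shuttle. With library size scaling they were −0.12, −0.27, −0.24, −0.34, −0.00317 and −0.15 in the same order. Leaving out each library in turn gave wide ranges for glucose uptake (−0.67 to −0.02) and lactate exchange (−0.89 to −0.25). Glycolysis moved to −0.20 without Atf3_low replicate 3, and the citric acid cycle to −0.40 without Atf3_high replicate 3. The shuttle moved to −0.20 without Atf3_high replicate 1, about the size of its spread of 0.18.

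Several single members also depended on Atf3_high replicate 2, while *Mdh1*, *Pfkl*, *Dld*, *Hk1* and *Got1* lay further below 0 without that library. Without it the 10 members of smallest p had log2 fold changes of −0.72 (*Mdh1*), −0.52 (*Mpc2*), −0.46 (*Eno3*), −0.88 (*Pdk2*), −1.42 (*Pgam1*), −0.66 (*Gapdh*), −0.37 (*Ldha*), −1.10 (*Pfkl*), −0.59 (*Dld*) and −0.27 (*Pkm*). For the other named members they were 0.07 (*Slc2a1*), −0.11 (*Slc2a4*), −0.55 (*Hk1*), 0.13 (*Hk2*), −0.40 (*Pfkm*), −0.26 (*Pgam2*), −0.14 (*Ldhb*), 0.33 (*Pdk4*), 0.03 (*Idh2*), −0.38 (*Idh3b*), −0.01 (*Sucla2*), 0.29 (*Suclg2*) and −0.41 (*Got1*). The values given below for each step come from all 6 libraries unless a library is named as left out.

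Glucose enters cardiomyocytes through Slc2a4 (GLUT4), the insulin-regulated transporter, and Slc2a1 (GLUT1), the basal one. *Slc2a4* stood at 96.5, 109 and 279 CPM in Atf3_high and 148, 292 and 163 CPM in Atf3_low. Its highest libraries were in different groups and the groups overlapped, with a log2 fold change of −0.29 (SE 0.52). *Slc2a1* stood at 40.6, 0 and 23.3 CPM in Atf3_high and 27.0, 25 and 40.9 in Atf3_low. These levels rest on 23 UMIs in all, at most 8 in a library, and the log2 fold change of −0.34 (SE 1.06) was not distinguishable from 0 at this depth. Both signs depended on a library: *Slc2a4* moved to 0.05 without Atf3_low replicate 2, and *Slc2a1* to 0.07 without Atf3_high replicate 2.

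Hexokinases trap glucose in the cell as glucose 6-phosphate, with Hk2 the main form of insulin-responsive muscle. *Hk2* stood at 117, 157 and 270 CPM in Atf3_high and 202, 159 and 163 in Atf3_low, and *Hk1* at 86.4, 169 and 126 CPM in Atf3_high and 182, 225 and 40.9 in Atf3_low. Neither separated the groups, with log2 fold changes of 0.06 (SE 0.50) for *Hk2* and −0.32 (SE 0.56) for *Hk1*. Leaving out Atf3_high replicate 3 took *Hk2* to −0.39, and leaving out Atf3_low replicate 2 took *Hk1* to 0.02. Gpi1 then makes fructose 6-phosphate, and *Gpi1* ran from 222 to 400 CPM over the 6 libraries, with both ends in Atf3_low (log2 fold change −0.23, SE 0.44).

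Phosphofructokinase catalyses the committed step of glycolysis, as the muscle form Pfkm or the liver form Pfkl. *Pfkm* stood at 112, 121 and 191 CPM in Atf3_high and 209, 242 and 136 in Atf3_low. The Atf3_low replicate 3 library fell between those of Atf3_high, and the log2 fold change was −0.47 (SE 0.50). This was −0.78 without Atf3_high replicate 3 and −0.31 without Atf3_high replicate 1. *Pfkl* stood at 25.4, 48.3 and 55.9 CPM in Atf3_high and 33.7, 91.8 and 150 in Atf3_low. It had 48 UMIs in all, Atf3_low replicates 2 and 3 were the highest libraries, and the log2 fold change was −1.02 (SE 0.74), or −0.53 without Atf3_low replicate 3.

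Of the middle steps, aldolase A, which splits fructose 1,6-bisphosphate, had from 1204 to 1852 CPM of *Aldoa* (log2 fold change −0.08, SE 0.35). *Tpi1*, for triosephosphate isomerase, ran from 60.6 to 289 CPM and was 1 of the 2 glycolytic members above 0 (0.21, SE 0.57). *Pgk1*, for the enzyme that makes ATP from 1,3-bisphosphoglycerate, ran from 12.1 to 94.3 CPM on 44 UMIs (−0.75, SE 0.80). In all of these genes the groups overlapped.

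Phosphoglycerate mutase moves the phosphate of 3-phosphoglycerate, with Pgam2 the muscle form. *Pgam1* stood at 35.6, 12.1 and 14.0 CPM in Atf3_high and 67.4, 41.7 and 95.3 in Atf3_low. Every Atf3_high library lay below every Atf3_low library, 20.5 ± 13.1 against 68.1 ± 26.8 CPM (SD, n = 3 libraries), but on 33 UMIs in all. Its log2 fold change of −1.59 (SE 0.88) was the lowest of the module, with an adjusted p of 0.941 by the edgeR quasi-likelihood F-test, Benjamini-Hochberg. *Pgam2* stood at 381, 579 and 806 CPM in Atf3_high and 586, 492 and 1062 in Atf3_low. The groups overlapped, with a log2 fold change of −0.26 (SE 0.40), and this moved to 0.11 without Atf3_low replicate 3.

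Enolase makes phosphoenolpyruvate, with Eno3 the muscle form. *Eno3* stood at 569, 338 and 880 CPM in Atf3_high and 809, 959 and 1212 in Atf3_low. Only Atf3_high replicate 3 reached the range of Atf3_low, and the means were 596 ± 272 and 993 ± 204 CPM (SD, n = 3 libraries). This gave a log2 fold change of −0.72 (SE 0.39, unadjusted p = 0.0732 and adjusted p = 0.927 by the edgeR quasi-likelihood F-test, Benjamini-Hochberg). Its value was −0.46 without Atf3_high replicate 2 and −1.11 without Atf3_high replicate 3. Pyruvate kinase closes the pathway, and *Pkm* stood at 239, 60.3 and 359 CPM in Atf3_high and 270, 250 and 572 in Atf3_low. Atf3_high replicate 2 was the lowest library by far, Atf3_high replicate 3 lay within the Atf3_low range, and the log2 fold change was −0.65 (SE 0.49). This was −0.27 without Atf3_high replicate 2, −0.20 without Atf3_low replicate 3 and −1.17 without Atf3_high replicate 3.

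**Figure D2:**
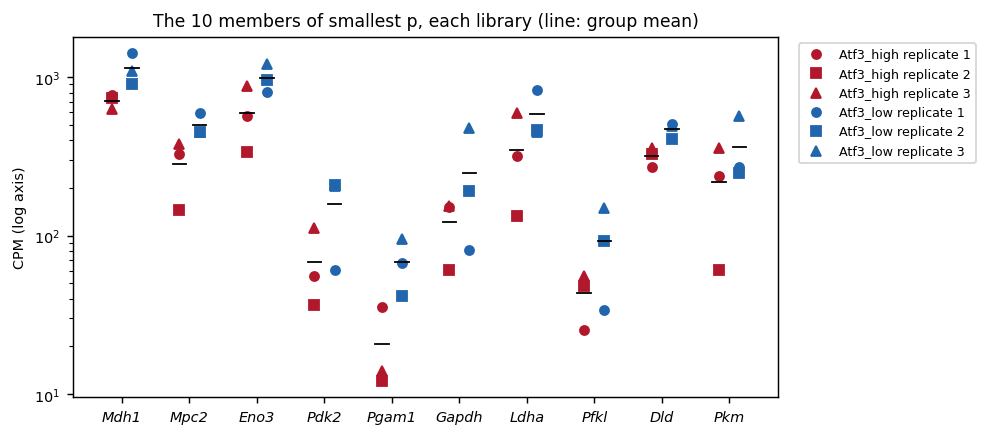
Level in CPM (vertical log axis) of the 10 members of smallest p in each of the 3 Atf3_high and 3 Atf3_low libraries, with lines at the group means. The groups separate for Mdh1, Mpc2, Pgam1 and Dld, and in the other 6 genes at least 1 Atf3_high library reaches the Atf3_low range.

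*Gapdh*, for glyceraldehyde 3-phosphate dehydrogenase, stood at 152, 60.3 and 154 CPM in Atf3_high and 80.9, 192 and 477 in Atf3_low. The groups overlapped and the mean of Atf3_low rested on replicate 3, with a log2 fold change of −0.92 (SE 0.55) that was −0.10 without that library and −1.41 without Atf3_low replicate 1. These counts are uncertain, because *Gapdh* shares sequence with many copies and how reads that match several copies were counted is not given in the sources used here. In all, 31 genes of its copy family had UMIs, and *Gapdh* itself held 138 of their 895 UMIs (15.4%). *Gm7336*, which matched *Gapdh* with 99.8% identity over 1232 bases, held 354 UMIs. *Gm10358*, with 99.1% identity over 1249 bases, held 182.

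The deposited UMIs were divided among the copies differently in the 2 groups. Whether sequence differences between the strains of this mixed background move reads from copy to copy was not tested. *Gm10358*, on the minus strand of GRCm38 at chr8:75405340-75406589, took 31.2%, 27.6% and 34.5% of the family's UMIs in Atf3_high and 3.39%, 0.926% and 2.33% in Atf3_low. It was high in every Atf3_high library and low in every Atf3_low library, with a log2 fold change of 3.78 (SE 0.62, adjusted p = 0.00187 by the edgeR quasi-likelihood F-test, Benjamini-Hochberg). Without Atf3_high replicate 2 the log2 fold change was 3.86. The same edgeR quasi-likelihood F-test without Atf3_low replicate 1 gave a Benjamini-Hochberg adjusted p of 0.0508, and the ordinary linear model of the 2 groups one of 0.532. *Gm7336* took 34.9%, 37.9% and 30.0% in Atf3_high and 57.6%, 51.9% and 40.3% in Atf3_low, and *Gapdh* took 16.1%, 5.75% and 12.4% against 10.2%, 21.3% and 27.1%. *Gm7336* was thus lower in every Atf3_high library, without passing the test (log2 fold change −0.56, SE 0.41), and *Gapdh* overlapped.

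Summed over all copies, the family stood at 943, 1052 and 1246 CPM in Atf3_high and 793, 902 and 1758 in Atf3_low. Its means were 1080 ± 153 and 1151 ± 529 CPM (SD, n = 3 libraries), and the groups overlapped. The log2 fold change of the sum was −0.08 (SE 0.37), and it ran from −0.35 to 0.34 when each library was left out, so that no direction can be given for *Gapdh* transcripts as a whole. Of 14 members with a near-identical copy in the reference, 4 had a copy with UMIs, and for the others any effect of copies was not measured. *Aldoa* held 1278 of 1279 UMIs of its family and *Ldha* 415 of 416. The 2 UMIs of *Eno1* stood beside 22 of its copy *Eno1b* (99.5% identity over 1736 bases), which had 6, 2 and 11 UMIs in Atf3_high and 1, 0 and 2 in Atf3_low. *Eno1b* had a log2 fold change of 1.83 (SE 1.20), or 3.04 without Atf3_low replicate 3 and 1.20 without Atf3_low replicate 2, and its groups overlapped.

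**Figure D3:**
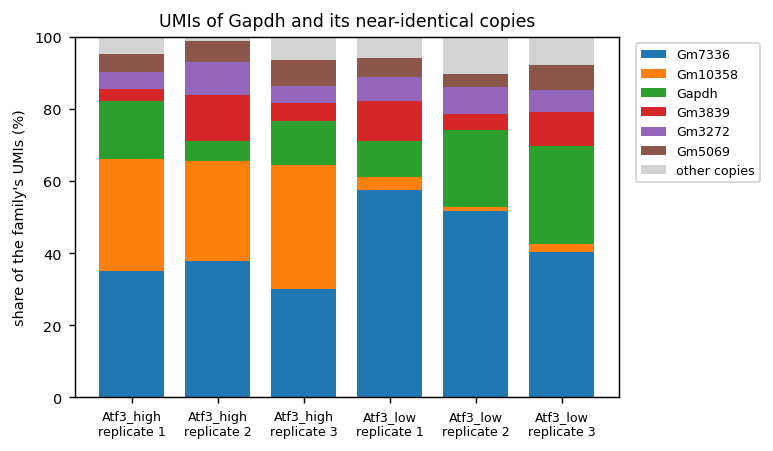
Share of the UMIs of Gapdh and its near-identical copies (vertical axis, percent) held by the 6 most abundant genes of the family in each of the 6 libraries. Gm10358 holds from 27.6% to 34.5% in the Atf3_high libraries and from 0.926% to 3.39% in the Atf3_low libraries.

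Lactate dehydrogenase converts pyruvate and lactate into each other, with Ldha the form of glycolytic muscle and Ldhb the form that prevails in the heart. *Ldha* stood at 320, 133 and 596 CPM in Atf3_high and 836, 467 and 449 in Atf3_low. Atf3_high replicates 1 and 2 lay below every Atf3_low library and replicate 3 within their range, with means of 350 ± 233 and 584 ± 218 CPM (SD, n = 3 libraries). The log2 fold change was −0.71 (SE 0.44), and it was −1.33 without Atf3_high replicate 3, −0.37 without Atf3_high replicate 2 and −0.39 without Atf3_low replicate 1. *Ldhb* stood at 843, 941 and 1397 CPM in Atf3_high and 1395, 859 and 1416 in Atf3_low. Each group held both low and high libraries, and the log2 fold change of −0.20 (SE 0.36) turned to 0.01 with library size scaling. It was −0.46 without Atf3_high replicate 3, −0.45 without Atf3_low replicate 2 and −0.06 without Atf3_high replicate 1.

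At pyruvate entry, *Mpc2*, for the carrier subunit that remains measurable here, was among the members of smallest p. It stood at 325, 145 and 377 CPM in Atf3_high and 593, 450 and 449 in Atf3_low. Every Atf3_high library lay below every Atf3_low library, with means of 282 ± 122 and 498 ± 82.6 CPM (SD, n = 3 libraries). This gave a log2 fold change of −0.79 (SE 0.43, unadjusted p = 0.0727 and adjusted p = 0.927 by the edgeR quasi-likelihood F-test, Benjamini-Hochberg).

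Pdk2 and Pdk4 phosphorylate and switch off pyruvate dehydrogenase, and Pdk4 is known to rise with fatty acid use. *Pdk2* stood at 55.9, 36.2 and 112 CPM in Atf3_high and 60.6, 209 and 204 in Atf3_low. Atf3_low replicates 2 and 3 were high, replicate 1 lay within the Atf3_high range, and the log2 fold change was −1.10 (SE 0.61, adjusted p = 0.927 by the edgeR quasi-likelihood F-test, Benjamini-Hochberg). *Pdk4* stood at 335, 181 and 303 CPM in Atf3_high and 350, 117 and 286 in Atf3_low. The groups overlapped fully, with a log2 fold change of 0.14 (SE 0.47) that turned to −0.03 without Atf3_high replicate 1 and to −0.25 without Atf3_low replicate 2.

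For the pyruvate dehydrogenase complex itself, the E1 subunit genes were *Pdha1* at 869 to 1206 CPM (log2 fold change 0.02, SE 0.36) and *Pdhb* at 681 to 1303 CPM (0.15, SE 0.37). *Dld*, for the E3 subunit that it shares with 2-oxoglutarate dehydrogenase, stood at 269, 326 and 359 CPM in Atf3_high and 505, 409 and 490 in Atf3_low. Every Atf3_high library lay below every Atf3_low library, with means of 318 ± 45.2 and 468 ± 52.0 CPM (SD, n = 3 libraries). This gave a log2 fold change of −0.56 (SE 0.41, adjusted p = 0.969 by the edgeR quasi-likelihood F-test, Benjamini-Hochberg). *Dlat*, for the E2 subunit, ran from 145 to 492 CPM (−0.60, SE 0.46, or −1.02 without Atf3_low replicate 2). *Pdhx*, for the protein that binds E3 to the complex, ran from 96.5 to 234 CPM (−0.53, SE 0.53). For both genes the groups overlapped. Whether these subunits differ from each other was not tested.

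In the citric acid cycle, *Cs*, for citrate synthase, ran from 784 to 1213 CPM (log2 fold change −0.28, SE 0.36). *Idh2*, for the NADP-dependent isocitrate dehydrogenase, stood at 630, 145 and 1509 CPM in Atf3_high and 849, 868 and 1430 in Atf3_low. The Atf3_high libraries held both the lowest and the highest level, so that the spread within that group, 761 ± 692 CPM (SD, n = 3 libraries), exceeded the difference from 1049 ± 330 in Atf3_low. The log2 fold change of −0.43 (SE 0.45) was −1.38 without Atf3_high replicate 3 and 0.03 without Atf3_high replicate 2.

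The NAD-dependent isocitrate dehydrogenase is built from Idh3a, Idh3b and Idh3g. *Idh3b* stood at 356, 278 and 335 CPM in Atf3_high and 519, 384 and 436 in Atf3_low. The groups did not overlap, with Atf3_high lower in every library at 323 ± 40.5 against 446 ± 68.1 CPM (SD, n = 3 libraries). Its log2 fold change of −0.46 (SE 0.41) did not pass the test (adjusted p = 0.996, the edgeR quasi-likelihood F-test, Benjamini-Hochberg). *Idh3a* ran from 136 to 404 CPM (−0.36, SE 0.47) and *Idh3g* from 351 to 735 CPM (−0.30, SE 0.40), both with overlap.

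Among the remaining enzymes of the cycle, *Ogdh* and *Dlst*, for the E1 and E2 subunits of 2-oxoglutarate dehydrogenase, had log2 fold changes of −0.15 (SE 0.34, from 1340 to 2234 CPM) and −0.08 (SE 0.44, from 181 to 405 CPM). *Sucla2*, for the ATP-forming succinyl-CoA ligase subunit, stood at 335, 447 and 629 CPM in Atf3_high and 512, 292 and 654 in Atf3_low. *Suclg2*, for the GTP-forming one, stood at 45.7, 24.1 and 32.6 CPM in Atf3_high and 60.6, 25 and 0 in Atf3_low. Neither separated the groups, with log2 fold changes of −0.03 (SE 0.42) and 0.16 (SE 0.98), whose signs changed when single libraries were left out. *Suclg1*, for the subunit common to both, ran from 133 to 660 CPM (−0.34, SE 0.44). *Fh1*, for fumarase, ran from 163 to 445 CPM (0.18, SE 0.46) and *Mdh2*, for mitochondrial malate dehydrogenase, from 2500 to 4522 CPM (−0.09, SE 0.32). In all of these the groups overlapped.

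The malate-aspartate shuttle carries the electrons of cytosolic NADH into mitochondria. *Mdh1*, for its cytosolic malate dehydrogenase, had the smallest p of the module. It stood at 767, 736 and 629 CPM in Atf3_high and 1415, 901 and 1103 in Atf3_low. Every Atf3_high library lay below every Atf3_low library, with means of 711 ± 72.6 and 1140 ± 259 CPM (SD, n = 3 libraries). This gave a log2 fold change of −0.68 (SE 0.37, unadjusted p = 0.0685 and adjusted p = 0.920 by the edgeR quasi-likelihood F-test, Benjamini-Hochberg).

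Of the transaminases of the shuttle, *Got1*, for the cytosolic enzyme, stood at 640, 869 and 955 CPM in Atf3_high and 1152, 909 and 1090 in Atf3_low. Only Atf3_high replicate 3 and Atf3_low replicate 2 crossed, and the log2 fold change was −0.36 (SE 0.36). This was −0.20 without Atf3_high replicate 1 and −0.50 without Atf3_low replicate 2. *Got2*, for the mitochondrial enzyme, ran from 542 to 820 CPM and had the highest log2 fold change of the module (0.25, SE 0.38), with overlap. Differences between these genes were not tested.

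Pairs of genes for the same step were also compared within a library, as the share of the pair's UMIs held by a named gene, which does not depend on scaling between libraries. These shares count 3′ tags and are not scaled by transcript length, and with 3 libraries a group they are given as a description. *Ldha* held 27.5% of the *Ldha* and *Ldhb* UMIs in Atf3_high replicate 1, 12.4% in replicate 2 and 29.9% in replicate 3, and 37.5%, 35.2% and 24.1% in Atf3_low. Atf3_low replicates 1 and 2 had the highest shares and Atf3_high replicate 2 the lowest, at 11 of 89 UMIs (95% Wilson interval 7.04% to 20.8%). The means of 23.3% ± 9.51 and 32.3% ± 7.16 (SD, n = 3 libraries) overlapped, and their difference of −9.00 percentage points was −3.55 without Atf3_high replicate 2.

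*Pdk4* held 85.7%, 83.3% and 73.0% of the *Pdk2* and *Pdk4* UMIs in Atf3_high and 85.2%, 35.9% and 58.3% in Atf3_low. Atf3_low replicate 1 matched the Atf3_high libraries while replicates 2 and 3 were lower, and the means were 80.7% ± 6.74 and 59.8% ± 24.7 (SD, n = 3 libraries). The share of Atf3_low replicate 2, 14 of 39 UMIs, had a Wilson interval from 22.7% to 51.6%. The difference of the means, 20.9 percentage points, was 8.90 without this library and 33.6 without Atf3_low replicate 1.

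*Pgam2* held 91.5%, 98.0% and 98.3% of the *Pgam1* and *Pgam2* UMIs in Atf3_high and 89.7%, 92.2% and 91.8% in Atf3_low. Atf3_high replicate 1 lay within the Atf3_low range, and the means were 95.9% ± 3.85 and 91.2% ± 1.34 (SD, n = 3 libraries). *Eno3* held from 98.9% to 100% of the *Eno1* and *Eno3* UMIs, and *Slc2a4* from 70.4% to 100% of the *Slc2a1* and *Slc2a4* UMIs, the latter on 9 to 65 UMIs a library. Counted without copies, neither share separated the groups. With the UMIs of *Eno1b* counted to *Eno1*, a choice made after the data were seen, *Eno3* held 94.9%, 93.3% and 94.0% in Atf3_high and 99.2%, 100% and 96.7% in Atf3_low. Every Atf3_high share was then the lower, on 2 to 12 UMIs of *Eno1* and *Eno1b* a library in Atf3_high and 0 to 3 in Atf3_low, and most of the Wilson intervals overlapped between the groups. The *Ldha* share with its copy counted was 13.3% in Atf3_high replicate 2 and unchanged elsewhere. *Pfkm* held 81.5%, 71.4% and 77.4% of the *Pfkm* and *Pfkl* UMIs in Atf3_high and 86.1%, 72.5% and 47.6% in Atf3_low, where replicate 3 alone stood low (10 of 21 UMIs, Wilson interval 28.3% to 67.6%).

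The remaining pairs were alike in both groups within their spread. *Hk2* held 57.5%, 48.1% and 68.2% of the *Hk1* and *Hk2* UMIs in Atf3_high and 52.6%, 41.3% and 80.0% in Atf3_low, with means of 58.0% ± 10.1 and 58.0% ± 19.9 (SD, n = 3 libraries). *Sucla2* held 88.0%, 94.9% and 95.1% of the *Sucla2* and *Suclg2* UMIs in Atf3_high and 89.4%, 92.1% and 100% in Atf3_low. Both ranges overlapped between the groups.

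**Figure D4:**
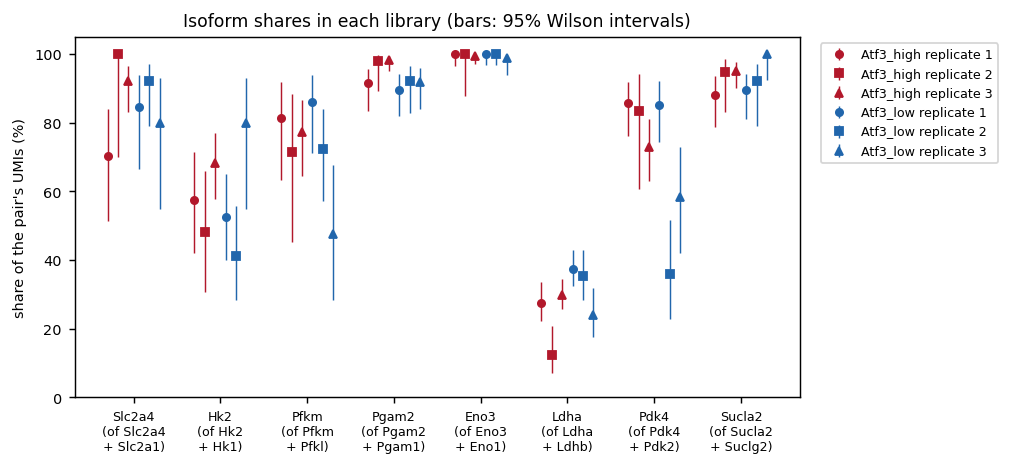
Share of a pair's UMIs (vertical axis, percent) held by the named gene of 8 isoform pairs in each of the 3 Atf3_high and 3 Atf3_low libraries, with bars for 95% Wilson intervals of counting error. Copies are not counted, the groups overlap in every pair so counted, and the Pdk4 share is lowest in Atf3_low replicate 2 (35.9%).

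Other genes of the pathway, 113 symbols in 8 lists, gave a mixed picture around the module (*Mut* and *Mmut* are the older and newer symbol of the same gene, tested once). Of these, 103 were analysed, 72 had at least 10 UMIs and 0 were called by the quasi-likelihood F-test of edgeR. At an unadjusted p under 0.05 there were 3 lower and 1 higher in Atf3_high, where 5.79% of all genes passed, so that 4 of 72 is near the share of all genes. Of the 72, 37 had a log2 fold change below 0 (median −0.04).

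Among transport genes (2 of 10 tested), *Bsg*, for the chaperone of lactate carriers, stood at 102, 60.3 and 186 CPM in Atf3_high and 128, 367 and 409 in Atf3_low. Its groups overlapped through Atf3_low replicate 1 (log2 fold change −1.29, SE 0.52, adjusted p = 0.723 by the edgeR quasi-likelihood F-test, Benjamini-Hochberg). *Slc16a1*, a lactate carrier, had −0.49 (SE 0.48), or −0.28 without Atf3_high replicate 2 and −0.75 without Atf3_low replicate 2. Among other glycolytic isoforms and regulators (8 of 18 tested, 4 below 0), *Eno1b* and *Bpgm*, which makes 2,3-bisphosphoglycerate, had the smallest p, *Bpgm* with 1.65 (SE 1.44) on 13 UMIs.

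Glycogen genes (15 of 19 tested, 7 below 0) were led by *Stbd1*, a glycogen-binding protein gene, with 23, 1 and 3 UMIs in Atf3_high and 0, 0 and 1 in Atf3_low. Its UMIs came mainly from Atf3_high replicate 1 (log2 fold change 3.65, SE 1.39). *Pygb*, for a glycogen phosphorylase, had −1.02 (SE 0.52), or −2.17 without Atf3_high replicate 3 and −0.60 without Atf3_high replicate 1. In the pentose phosphate pathway (7 of 8 tested, 4 below 0), *Taldo1*, for transaldolase, stood at 401, 338 and 186 CPM in Atf3_high and 209, 150 and 136 in Atf3_low. Only Atf3_high replicate 3 reached the Atf3_low range (0.87, SE 0.48), and *Pgd* had 1.51 (SE 1.03).

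Other genes that control pyruvate dehydrogenase (5 of 9 tested, 3 below 0) included *Pdp1*, for the phosphatase that reverses the Pdk kinases. It had 2, 0 and 1 UMIs in Atf3_high and 7, 6 and 1 in Atf3_low. The scaled levels did not overlap, but so few UMIs cannot show a separation. Atf3_high replicate 2, without a UMI, could have stood at up to 36.2 CPM, above the 13.6 CPM of Atf3_low replicate 3. The log2 fold change of *Pdp1* was −2.56 (SE 1.22, adjusted p = 0.833 by the edgeR quasi-likelihood F-test, Benjamini-Hochberg). *Pdpr*, for the regulatory subunit of this phosphatase, had −1.33 (SE 1.35). Of the other citric acid cycle and anaplerosis genes (16 of 22 tested, 6 below 0), *Pcca* had −1.58 (SE 1.01) and *Ogdhl* 0.80 (SE 0.61). *Pcca* moved to −0.98 without Atf3_low replicate 3 and to −1.96 without Atf3_low replicate 2. Of the other shuttle genes (5 of 10 tested, all 5 below 0), *Slc25a12*, for the aspartate-glutamate carrier, had −0.66 (SE 0.50) and *Gpd2* −1.11 (SE 1.25). With a library left out *Gpd2* ran from −1.91 to −0.76.

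Among regulators (14 of 17 tested, 6 below 0), *Ppargc1a*, for the coactivator PGC-1α, had the smallest p of all 72 genes. Its level was 127 ± 38.6 CPM in Atf3_high and 325 ± 84.5 in Atf3_low (SD, n = 3 libraries), without overlap. The log2 fold change was −1.33 (SE 0.48, adjusted p = 0.649 by the edgeR quasi-likelihood F-test, Benjamini-Hochberg). *Myc* had 2.68 (SE 1.33) on 18 UMIs, 10 of them in Atf3_high replicate 2. Without that library edgeR gave 2 of the other pathway genes at an unadjusted p under 0.05, where 4.48% of all genes passed. It also gave 2 without Atf3_high replicate 1 (4.27% of all genes) and 2 without Atf3_low replicate 2 (5.73%). Without Atf3_high replicate 3 it gave 10, where all genes gave 6.77%. In these fits the minimum of 10 UMIs applied to the libraries kept, so not all 72 genes were tested.

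Promoter sequence was examined for features that the choice of members did not use. RefSeq windows (GRCm38.p6, 250 bases before to 50 after each start) were found for 40 of the 42 members, in 57 windows. *Slc2a4* and *Idh3a* were not matched. The letters ACGTG, the core of the hypoxia response element, stood on either strand in a window of 15 of 40 members (37.5%) and of 21.8% of all 27025 genes in the table. They were found for 6 of the 10 members of smallest p, *Mdh1*, *Pdk2*, *Pgam1*, *Gapdh*, *Ldha* and *Pkm*. TGACGTCA, the palindromic site of ATF and CREB proteins, stood in a window of 3 of 40 members (7.50%) and of 2.03% of all genes, and the related TGACGCAA in 0 of 40 (0.562% of all genes). AAGGTCA, the core site of estrogen-related receptors, stood in a window of 4 members, *Eno1*, *Got1*, *Ogdh* and *Tpi1* (10%), and of 5.38% of all genes. Members with several starts have several windows, and base composition was not matched, so these shares are a description and no match shows binding.

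The TGACGTCA matches are shown because Atf3 is the factor by which the areas were chosen, each on the strand of its gene with the motif in capitals. They lie in *Ldha* (plus strand, chr7:46845781-46845810), *Mdh2* (plus strand, chr5:135778511-135778540) and *Ogdh* (plus strand, chr11:6291535-6291564), and of these genes *Ldha* had a log2 fold change of −0.71, *Mdh2* of −0.09 and *Ogdh* of −0.15, with no call.
Ldha: ggctcccactcTGACGTCAgcgcggagctt
Mdh2: ggagagaatcgTGACGTCAggcctcgctcg
Ogdh: acccaattctgTGACGTCAcgtcacgccca
In *Ogdh* the motif shares its last bases with a match to ACGTG on the other strand. The ACGTG matches of 3 members whose levels lay among the smallest p are shown likewise, on the strand of the gene, *Mdh1* (minus strand, chr11:21572118-21572144), *Pgam1* (plus strand, chr19:41911746-41911772) and *Pdk2* (minus strand, chr11:95041481-95041507).
Mdh1: tcggtggagcgACGTGtgctgtcgctc
Pgam1: gctccttgcttACGTGcgctccgtgac
Pdk2: cgaggagagccACGTGtcgaagcgcaa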

How the data were processed

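The counts are the UMI counts per gene that the authors deposited, made per the submitters' processing notes with UMI-tools 1.0.0, HISAT2 2.1.0, featureCounts 1.6.4 and GRCm38. The annotation release, UMI length, use of reads with several matches and strand use in counting are not given in the sources used here. In the reference, 12 members overlap an exon of a gene on the other strand, among them *Mdh1*, *Idh3b* and *Gapdh*. On the same strand 2 members do, *Pfkm* and *Pkm*. Any effect of these overlaps on the counts was not tested. Genes with at least 10 UMIs over the 6 libraries were tested with the quasi-likelihood F-test of edgeR 4.0.16 (limma 3.58.1, R 4.3.3), TMM scaling over these genes, a design of the 2 groups, and Benjamini-Hochberg adjustment over all of them at 0.05. CPM were computed from TMM-scaled library sizes, the linear models used log2 CPM with a pseudocount of 4, and share intervals are Wilson 95% intervals. Standard errors (SE) were computed as the absolute log2 fold change divided by the square root of the F statistic, and are approximate. The p-values measure the spread between these libraries.

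Members and lists were written from textbook roles with earlier results of these data known. Named members are the 10 of smallest p, the 2 of smallest p in each step and the isoform pairs. In the other lists the 2 genes of smallest p are named. Marker lists covered cardiomyocytes, fibroblasts, endothelial, mural, macrophage, erythrocyte, adipocyte, epicardial and skeletal muscle cells. Copies were found with BLAST 2.17.0 (at least 95% identity over 200 bases). Alternatives were DESeq2 1.42.0, limma-trend, an ordinary linear model of the 2 groups, library size and RLE scaling, no filter, filterByExpr, the replicate number as a block, and leaving out each library. The tests were also run on simulated data, with no change or with changes larger than that of any member. Those runs do not show how often differences of the size seen here would be found.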

Additional observations from a re-analysis of the deposited data

How the results depend on the processing

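The cause of these differences was not tested. Genes called, 7, were 12 with DESeq2, 3 with limma-trend, 1 with the two-group linear model and from 0 (without Atf3_low replicate 1) to 11 (without Atf3_high replicate 3), and no fit called a member. Genes at an unadjusted p under 0.05, 444, were 249 with DESeq2, 119 with filterByExpr (5.99% of 1988 tested against 5.79% of 7665), 623 with no filter (3.63%) and from 282 to 477 with a library left out. Members, 0, were 1 with DESeq2, 2 with limma-trend, 4 with the two-group linear model and from 0 to 6 with a library left out. Other pathway genes, 4, were 2 with filterByExpr and from 2 to 10 with a library left out. With the replicate block, 24 genes and 0 members were called and 6 members had an unadjusted p under 0.05 (4.81% of all genes). Whether equal numbers share a heart is not given (correlations 0.0851, 0.000876 and 0.0656 for numbers 1, 2 and 3, from −0.0946 to 0.0191 for unequal numbers). For number 2, Y-linked UMIs were 16 in Atf3_high and 0 in Atf3_low, and *Xist* UMIs 0 and 13. These 2 libraries, which the block pairs, are therefore unlikely to share a heart. Members without overlap, 5 lower and 0 higher, were from 5 to 19 and from 0 to 1 with a library left out, and 1 higher with library size scaling. Of all genes, 5.61% to 9.50% were lower and 10.8% to 14.5% higher without overlap with a library left out. With library size scaling 10.3% of all genes were higher without overlap. The shuttle median was −0.15 with library size scaling. Signs turned for *Ldhb* (0.0136, library size), *Hk2* (−0.0244 with limma-trend and the two-group linear model, −0.0414 with the replicate block), *Hk1* (0.0284 with limma-trend and the two-group linear model) and *Sucla2* (0.18 with library size, 0.0464 with no filter). With a library left out, log2 fold changes ran from −0.99 to 0.0471 (*Slc2a4*), −1.04 to 0.0670 (*Slc2a1*), −1.38 to 0.0252 (*Idh2*), −0.39 to 0.31 (*Hk2*), −0.72 to 0.0209 (*Hk1*), −0.58 to 0.11 (*Pgam2*), −0.25 to 0.45 (*Pdk4*), −0.35 to 0.20 (*Sucla2*), −0.33 to 1.20 (*Suclg2*) and −0.0870 to 1.10 (*Ogdhl*). The minimum of 100 UMIs, overlap counts under other scalings and libraries, and isoform shares by library left out or with copies counted were added after seeing the data.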
